A study of Mus musculus with 9 samples.

Results

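The genes described here are 10 heat shock protein and chaperone genes of muscle: the 6 small heat shock protein genes Hspb1, Hspb2, Hspb6, Hspb7, Hspb8 and Cryab, and the larger chaperones and cochaperones Hsph1, Dnajb1, Hspa8 and Hsp90aa1. They were taken by name, as every probe on the array whose gene name is one of these 10. This rule uses names only, but the 10 genes were chosen with earlier results of these data known. Together they had 15 probes on 24 spots, of which 14 probes passed the filter on dim probes, so that all 10 genes were among the 21995 tested. The cells were C2C12, a mouse myoblast line whose cells fuse into multinucleated myotubes in culture, and the series title speaks of myotubes. The 3 groups were vehicle, 1 nM calcitriol and 10 nM calcitriol, each for 72 h and each of 3 biological replicates per the sample titles and the design text, all in the same cell line and with no genetic change named in the labels. Calcitriol, the active hormone made from vitamin D, works through a nuclear receptor. No source used here states how far the cells had differentiated when it was added. All groups are cultures of a single immortal line.

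Small heat shock proteins bind unfolding proteins and hold them in a soluble state without using ATP. HSP70 proteins, of which Hspa8 encodes the constitutive cytosolic form, then refold these clients in cycles of ATP hydrolysis that J-domain proteins such as the product of Dnajb1 start and that nucleotide exchange factors such as the HSP110 protein Hsph1 reset. HSP90 proteins act late on clients that are almost folded, among them kinases, steroid receptors and myosin. Skeletal muscle is rich in small heat shock proteins, where several bind desmin, actin, filamin and titin at the Z-disc of the sarcomere, and mutations in CRYAB, HSPB1 and HSPB8 cause inherited disease of muscle or of motor nerve. The heat shock factor HSF1 switches on many of these genes through heat shock elements, which are inverted repeats of the motif GAA in their promoters.

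Promoter sequences for 6 of the 10 genes were in the RefSeq table used here, on assembly GRCm38.p6, as 9 start sites: Hspb1, Hspb7 and Hspb8 with 1 each, and Hspb6, Hsph1 and Dnajb1 with 2 each. Hspb2, Cryab, Hspa8 and Hsp90aa1 are named only. The 250 bases before each start were searched on both strands for the 8-base cores GAANNTTC and TTCNNGAA of a heat shock element, which did not overlap each other in these genes. Either core was found in 12.8% of all 32851 promoters of the table and in 4 of the 9 of these genes, of which the pair of Hsph1 starts share the same bases. Below are the 130 bases before the start of each gene with a core, in lower case with the core in capitals, and, for comparison, the same window of Hspb7, the gene with the highest change at 10 nM, where neither core was found. They lie at chr5:135887789-135887918 on the plus strand for Hspb1, at chr7:30553171-30553300 on the plus strand for the second start of Hspb6, at chr5:149636316-149636445 on the minus strand for the first start of Hsph1, and at chr4:141420649-141420778 on the plus strand for Hspb7.
Hspb1: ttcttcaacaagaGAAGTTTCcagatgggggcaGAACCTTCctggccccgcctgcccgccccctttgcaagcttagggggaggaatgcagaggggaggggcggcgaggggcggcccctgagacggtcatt
Hspb6: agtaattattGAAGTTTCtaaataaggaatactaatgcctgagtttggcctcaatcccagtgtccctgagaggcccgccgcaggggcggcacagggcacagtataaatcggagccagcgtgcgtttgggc
Hsph1: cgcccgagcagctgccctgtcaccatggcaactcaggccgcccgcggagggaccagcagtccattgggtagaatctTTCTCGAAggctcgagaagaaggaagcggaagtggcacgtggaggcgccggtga
Hspb7: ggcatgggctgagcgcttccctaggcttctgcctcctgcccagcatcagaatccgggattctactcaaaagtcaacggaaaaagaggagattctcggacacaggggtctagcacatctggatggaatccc
In Hspb1 the cores GAAGTTTC and GAACCTTC began 117 and 97 bases before the start. In Hspb6 GAAGTTTC began 120 bases before the second start, and a TATAAA box began 29 bases before it. In Hsph1 TTCTCGAA began 54 bases before the first start. The searches found no heat shock core in the windows of Hspb7, Hspb8 or either start of Dnajb1. The window of the second Dnajb1 start, chr8:83608298-83608547 on the plus strand, lies downstream of the first start. It is therefore not sequence ahead of the whole gene. The same holds for the window of the second Hspb6 start. The consensus sites of MEF2 and of serum response factor (the CArG box), regulators of muscle genes, were in 2.92% and 1.47% of all promoters and in 0 of these 9. The E-box CAGCTG, searched for as well, was in 13% of all promoters and in 3 of these 9. These were the window of the second Dnajb1 start and those of both Hsph1 starts, which share the same bases. A match describes the letters in the window and shows no binding.

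Each sample of total RNA was labelled with Cy3 and hybridised to its own 1-colour array, and levels are given as the log2 of the processed signal minus the log2 of that array's 75th percentile of it, so that 0 is the level of a spot at that percentile. A level compares groups for 1 probe and not genes with each other. The 75th percentile of the arrays ran from 2826 to 3389 intensity units, and the number of arrays limits the precision. All 14 probes used were well above background on 9 of 9 arrays, and no spot was saturated. Vehicle replicate 3 was the least clean array, with 13.8% of its spots marked as non-uniform against at most 0.126% on each other array. Its median intensity was 659.6, against 215.6 to 315.4 on the other arrays. Of its spots 96.4% were well above background, against 67.05% to 79.2% on the others. Vehicle replicate 3 is among the 3 values behind every difference from vehicle below except that of Hsf5. Arrays lay on 3 slides, with 10 nM replicate 3 alone on the third. Cyp24a1, a direct target of the vitamin D receptor that degrades calcitriol, rose by 1.29 at 1 nM and by 6.13 at 10 nM on the log2 scale (limma, Benjamini-Hochberg adjusted p of 0.00386 and 7.37e-07). Across all genes, 23.6% were called at an adjusted p under 0.05 for 1 nM against vehicle, 30.1% for 10 nM against vehicle and 3.81% for 10 nM against 1 nM. With arrays scaled to their median in place of the 75th percentile, the median change of all genes moved from -0.09 to 0.38 at 1 nM and from -0.11 to 0.40 at 10 nM, and the share of called genes that were higher moved from 49.9% to 62.1% and from 51.2% to 67.1%.

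Against this background, 7 of the 10 genes were called at 1 nM, 5 of them higher (Hspb2, Hspb8, Cryab, Hsph1 and Hsp90aa1) and 2 lower (Hspb6 and Dnajb1). At 10 nM, 5 of the 10 were called and all 5 were higher: Hspb7, Cryab, Hsph1, Hspa8 and Hsp90aa1. The share of genes called higher was 11.8% at 1 nM and 15.4% at 10 nM over all genes, and the share called lower was 11.8% and 14.7%. The median change of the 10 genes was 0.33 on the log2 scale at 1 nM and 0.33 at 10 nM, against -0.09 and -0.11 over all genes. Cryab, Hsph1 and Hsp90aa1 were higher at both doses. These comparisons share the vehicle arrays and are not independent of each other. Since the 10 genes were chosen with earlier results of these data known, their counts and medians beside those of all genes only describe the set. With median scaling none of the 10 was called at 1 nM by limma (6 at an unadjusted p under 0.05, all higher) and 3 were called at 10 nM (Hspb7, Cryab and Hsph1), while at 1 nM Dnajb1 turned from -0.47 to 0.02. Each scaling subtracts a constant from all values of an array, so changes relative to the median of all genes were bound to move by little. For Dnajb1 at 1 nM this went from -0.39 to -0.36 and for Cryab at 10 nM from 0.72 to 0.74. These relative values are therefore no check on the calls. The groups of 3 arrays did not overlap for 8 of the 10 genes at 1 nM and 9 of the 10 at 10 nM, against 42.4% and 43.8% of all genes.

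**Figure D1:**
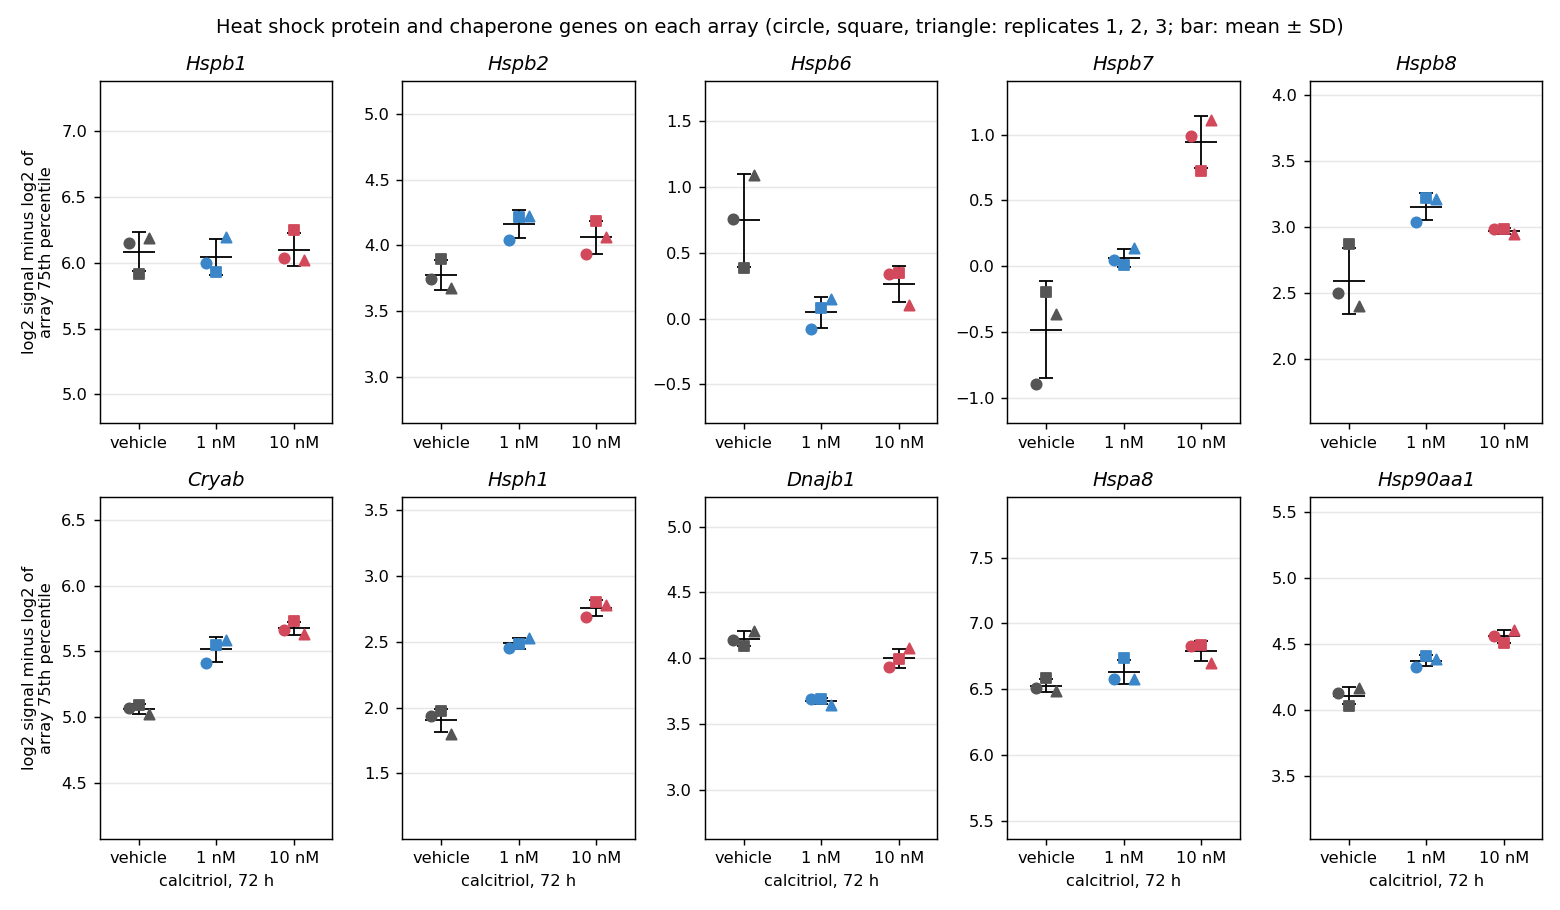
Level of each of the 10 genes on every array (log2 of the processed signal minus log2 of the array's 75th percentile) by group, with replicates 1, 2 and 3 as circle, square and triangle, and the mean ± SD of 3 arrays as bars; every panel spans the same number of log2 units. The 3 groups are apart from each other for 6 genes (Hspb7, Hspb8, Cryab, Hsph1, Dnajb1 and Hsp90aa1), and those of Hspb1 lie on top of each other.

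Cryab encodes alpha B-crystallin, the small heat shock protein that binds desmin and actin filaments. Its brightest probe lies at chr9:50564566-50564625 on the plus strand of the mm9 build, as the array files give it. No source used here says whether this or any other probe lies in coding or untranslated sequence. Its level was 5.07, 5.09 and 5.02 in vehicle replicates 1 to 3, 5.41, 5.55 and 5.58 at 1 nM, and 5.66, 5.73 and 5.63 at 10 nM. Every treated array was above every vehicle array, and the groups of the doses did not overlap either. Cryab rose 1.37-fold at 1 nM (log2 0.45, SE 0.07; limma, Benjamini-Hochberg adjusted p = 0.00268) and 1.53-fold at 10 nM (log2 0.61; adjusted p = 0.000404). Its difference between the doses, 0.16 with a 95% interval from -0.00254 to 0.32, did not pass (adjusted p = 0.422).

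Hspb2, the myotonic dystrophy kinase binding protein of muscle, lies beside Cryab in a head-to-head pair in mammals. In the reference gene table its span at chr9:50751072-50752354 falls inside that of Cryab, chr9:50745951-50756636 (GRCm38.p6), and its probe lies at chr9:50559211-50559270 on the minus strand (mm9). The level of Hspb2 was 3.75, 3.90 and 3.67 in vehicle, 4.04, 4.22 and 4.23 at 1 nM, and 3.93, 4.19 and 4.06 at 10 nM. All treated arrays were above all vehicle arrays, and the ranges of the doses overlapped. Hspb2 rose 1.31-fold at 1 nM (log2 0.39, SE 0.10; limma adjusted p = 0.0266), while its 0.29 at 10 nM did not pass (adjusted p = 0.0659). The call at 1 nM was lost without vehicle replicate 1, without vehicle replicate 3 and without 1 nM replicate 2 or 3 (adjusted p from 0.0605 to 0.0997). A slide block took it to 0.0743. At 10 nM Hspb2 passed without vehicle replicate 2 (0.0443) and without 10 nM replicate 1 (0.0499).

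Hspb7, also called cvHSP, is a small heat shock protein of heart and skeletal muscle that binds filamin C. Its probe at chr4:140980355-140980414 on the plus strand (mm9) is printed 10 times on the array. The level of Hspb7 was -0.90, -0.19 and -0.36 in vehicle, 0.04, 0.01 and 0.14 at 1 nM, and 0.99, 0.73 and 1.11 at 10 nM. The groups stood in the order of the dose with no overlap, and the vehicle arrays were spread the widest, with vehicle replicate 1 lowest. Hspb7 rose 2.69-fold at 10 nM against vehicle (log2 1.43, 95% interval from 0.99 to 1.86; limma adjusted p = 0.000834), the highest change among the 10 genes and the only one beyond 2-fold. Its call at 10 nM held under all 26 alternatives. At 1 nM its 0.55 did not pass (adjusted p = 0.0744), but did so without vehicle replicate 2 (0.0376), while without vehicle replicate 1 the change was 0.34 (0.126). Over the 10 spots of an array, 9 on vehicle replicate 3, the SD was between 0.0313 and 0.0963, against an SD of 0.37 between the vehicle arrays.

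Hspb8, also called HSP22, works with the cochaperone Bag3 in the removal of damaged filamin from muscle. Its probe lies at chr5:116859063-116859122 on the minus strand (mm9). The level of Hspb8 was 2.495, 2.87 and 2.40 in vehicle, 3.04, 3.22 and 3.21 at 1 nM, and 2.98, 2.98 and 2.94 at 10 nM. The 1 nM arrays were highest, the 10 nM arrays lay between them and vehicle, and no groups overlapped, although vehicle replicate 2 came close to the 10 nM arrays. Hspb8 rose 1.48-fold at 1 nM (log2 0.57, SE 0.13; limma adjusted p = 0.0148). At 10 nM its 0.38 missed the threshold (adjusted p = 0.0565), and passed without vehicle replicate 2 (0.00374). The call at 1 nM was lost without vehicle replicate 1 (0.0521) and without 1 nM replicate 2 (0.0612) or 3 (0.0597).

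Hspb6, also called HSP20, is a muscle small heat shock protein that protein kinase A phosphorylates. Its probe lies at chr7:31340398-31340457 on the plus strand (mm9). The level of Hspb6 was 0.76, 0.39 and 1.09 in vehicle, -0.08, 0.08 and 0.15 at 1 nM, and 0.34, 0.34 and 0.11 at 10 nM. Every treated array was below every vehicle array, the vehicle arrays were far apart, and the ranges of the doses overlapped. Hspb6 fell 1.62-fold at 1 nM (log2 -0.70, SE 0.18; limma adjusted p = 0.0247). Without vehicle replicate 1, or without any of the 1 nM replicates, the adjusted p was between 0.0589 and 0.0787. Its -0.48 at 10 nM did not pass (adjusted p = 0.0775), passed without vehicle replicate 2 (0.0125), and turned to 0.05 with median scaling.

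Hspb1 encodes HSP27 (HSP25 in the mouse), a small heat shock protein that acts on actin filaments and that a kinase cascade under p38 phosphorylates. Its probe lies at chr5:136365366-136365425 on the plus strand (mm9). The level of Hspb1 was 6.15, 5.92 and 6.19 in vehicle, 6.002, 5.93 and 6.20 at 1 nM, and 6.04, 6.25 and 6.02 at 10 nM. All 3 groups overlapped. The difference from vehicle was -0.04 at 1 nM (95% interval from -0.31 to 0.22; limma adjusted p = 0.817) and 0.02 at 10 nM (from -0.25 to 0.28; adjusted p = 0.929). The sign at 1 nM changed with the scaling, and that at 10 nM on leaving out vehicle replicate 2 or 10 nM replicate 2.

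**Figure D2:**
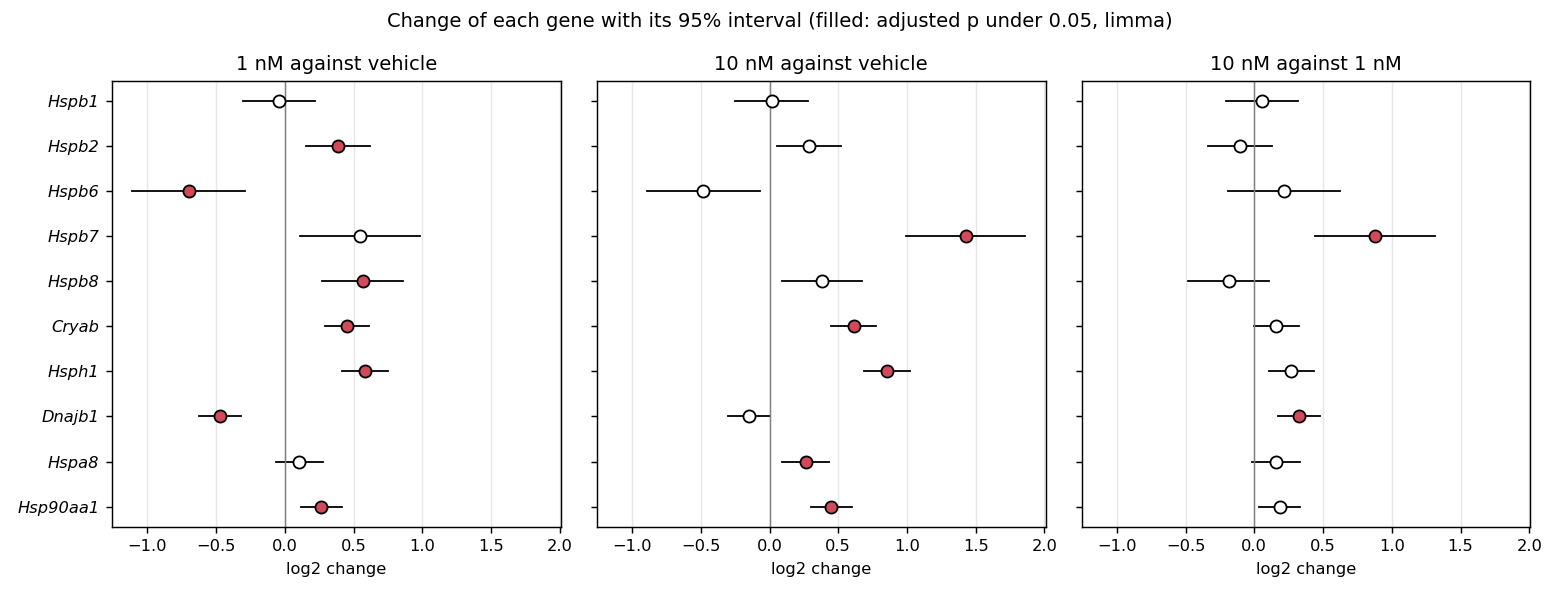
Log2 change of each of the 10 genes in the 3 comparisons, with its 95% interval from limma; filled points have a Benjamini-Hochberg adjusted p under 0.05. Hspb7 is farthest to the right at 10 nM against vehicle (1.43), Hspb6 and Dnajb1 are the filled points left of 0 at 1 nM (-0.70 and -0.47), and 2 points are filled between the doses.

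Hsph1 encodes HSP105, the HSP110 protein that releases ADP from HSP70. Its brightest probe lies at chr5:150419744-150419803 on the minus strand (mm9), and its promoter holds the core TTCTCGAA shown above. The level of Hsph1 was 1.94, 1.97 and 1.80 in vehicle, 2.45, 2.48 and 2.53 at 1 nM, and 2.69, 2.80 and 2.78 at 10 nM. The groups stood in the order of the dose with no overlap and with little spread within each. Hsph1 rose 1.50-fold at 1 nM (log2 0.58, SE 0.07; limma adjusted p = 0.00078) and 1.81-fold at 10 nM (log2 0.85; adjusted p = 7.08e-05). The step of 0.27 between the doses did not pass (95% interval from 0.10 to 0.44; adjusted p = 0.106).

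Hspa8 encodes HSC70, the HSP70 protein that cells make without stress. The level of its brightest probe, at chr9:40613223-40613282 on the plus strand (mm9), was 6.51, 6.58 and 6.49 in vehicle, 6.58, 6.74 and 6.58 at 1 nM, and 6.83, 6.84 and 6.70 at 10 nM. The 10 nM arrays were above the vehicle arrays, and the 1 nM arrays overlapped both. Hspa8 rose 1.20-fold at 10 nM (log2 0.26, SE 0.07; limma adjusted p = 0.0325), while its 0.11 at 1 nM did not pass (adjusted p = 0.352). This was the least firm of the calls at 10 nM, lost under 14 of 26 alternatives. Among them were the fits without vehicle replicate 1 or 3, without 10 nM replicate 1 or 2, and without 1 nM replicate 3, which took the adjusted p to between 0.0544 and 0.108.

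Dnajb1 encodes HSP40, the J-domain protein that delivers clients to HSP70 and stimulates its ATPase. Its probe lies at chr8:86135660-86135719 on the plus strand (mm9). The level of Dnajb1 was 4.14, 4.10 and 4.21 in vehicle, 3.69, 3.69 and 3.65 at 1 nM, and 3.93, 3.99 and 4.07 at 10 nM. The 1 nM arrays were the lowest, and the 10 nM arrays lay between them and vehicle with no overlap on either side. Dnajb1 fell 1.39-fold at 1 nM (log2 -0.47, SE 0.07; limma adjusted p = 0.00154), a direction that median scaling did not keep, as given above. Of 26 alternatives, 1 reversed this direction at 1 nM, namely median scaling of all arrays. With median scaling and without vehicle replicate 3, Dnajb1 was still lower at 1 nM but was not called. At 10 nM against vehicle its -0.15 did not pass (95% interval from -0.30 to 0.00487; adjusted p = 0.133).

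Hsp90aa1 encodes the stress-inducible cytosolic HSP90, which in muscle folds myosin together with Unc45b. Its kept probe lies at chr12:111929248-111929307 on the minus strand (mm9). The level of Hsp90aa1 was 4.13, 4.03 and 4.16 in vehicle, 4.33, 4.41 and 4.39 at 1 nM, and 4.56, 4.51 and 4.61 at 10 nM. The groups stood in the order of the dose and did not overlap. Hsp90aa1 rose 1.20-fold at 1 nM (log2 0.27, SE 0.06; limma adjusted p = 0.022) and 1.37-fold at 10 nM (log2 0.45; adjusted p = 0.00143). The call at 1 nM was lost under 11 of 26 alternatives, among them quantile normalization (0.0721), the submitters' series table (0.0865), no filter on dim probes (0.0565), only the groups compared (0.0639), the slide as a block (0.0504), and leaving out 1 nM replicate 2 (0.0889) or 3 (0.083). Its other probe, at chr12:111929938-111929997, was well above background on 3 of 9 arrays and was not used.

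By group means, Hspb7, Cryab, Hsph1, Hspa8 and Hsp90aa1 stood in the order vehicle, 1 nM, 10 nM. Hspb2 and Hspb8 were highest at 1 nM, and Hspb1, Hspb6 and Dnajb1 were lowest at 1 nM. When the doses were compared directly in the main fit, which holds no block, 2 of the 10 genes were called and both were higher at 10 nM. Of all genes, 3.81% were called (1.6% higher and 2.21% lower). Hspb7 at 10 nM was 1.84-fold above its 1 nM level (log2 0.88, SE 0.19; limma adjusted p = 0.0478). Dnajb1 was 1.25-fold higher (log2 0.33, SE 0.07; adjusted p = 0.0393). Both sit close to the threshold: with the replicate number as a block, since same-numbered arrays of the doses deviated together, the adjusted p was 0.111 for Hspb7 and 0.102 for Dnajb1, and neither was called. Both calls were also lost on leaving out any 1 of the 6 arrays of the doses, and that of Dnajb1 without vehicle replicate 1 as well. Of the 10 genes, 6 had dose groups that did not overlap, against 24% of all genes.

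Every one of the 30 differences of the 10 genes kept its sign within slide 1 and within slide 2 alone. Each slide holds groups of a single array, vehicle on slide 2 being replicate 3 alone, so no calls are read from within a slide.

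Where several probes matched a gene, the probes of Cryab and Hsph1 gave values near each other and those of Hspa8 did not give the same calls. The other Cryab probe, at chr9:50561458-50561517, was 0.48 higher at 1 nM and 0.57 higher at 10 nM (limma over all probes, adjusted p of 0.031 and 0.012). The other Hsph1 probe, at chr5:150420110-150420169, was 0.62 and 0.90 higher (adjusted p of 0.00174 and 0.000178). For Hspa8 the other probes, at chr9:40611142-40611201 and chr9:40612755-40613050, were 0.17 and 0.15 higher at 10 nM, and neither passed (adjusted p of 0.251 and 0.394). The last of these spans 296 bases of the genome, more than the 60 bases of the other probes. Between the doses they differed by -0.08 and 0.00, against 0.16 for the brightest probe. The mean of the Hspa8 probes did not pass at 10 nM either (0.19; adjusted p = 0.0881).

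**Figure D3:**
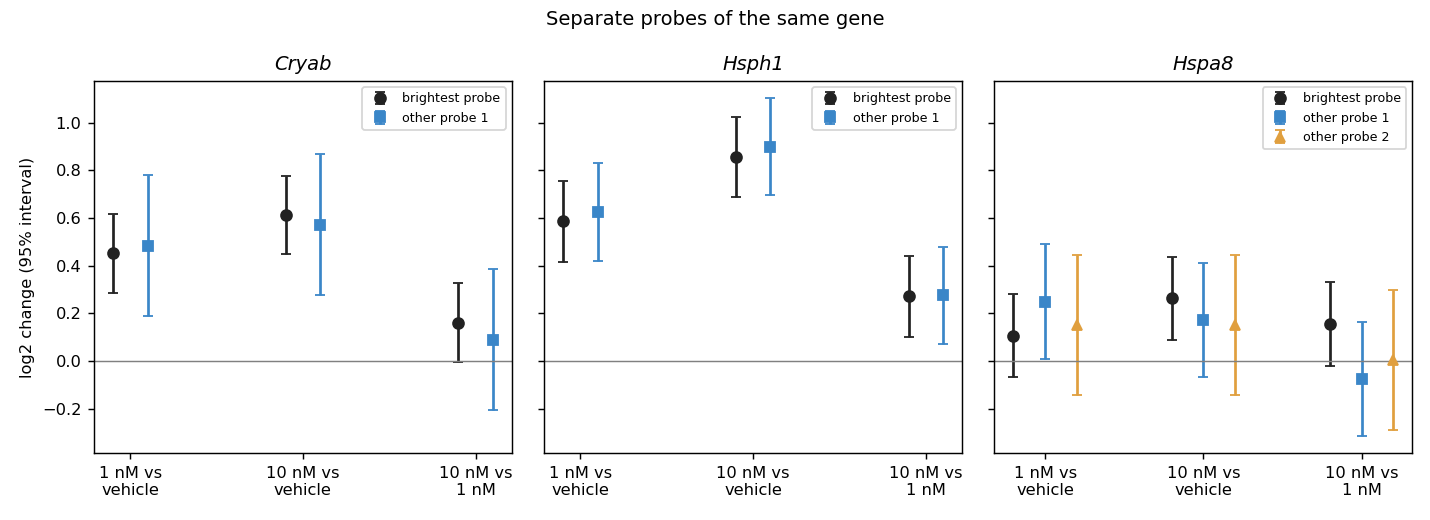
Log2 change with its 95% interval of each kept probe of the 3 genes with more than 1, for the 3 comparisons. The probes of Cryab and of Hsph1 lie side by side, and those of Hspa8 at 10 nM against vehicle lie at 0.26 for the brightest probe and at 0.17 and 0.15 for the others.

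Other chaperones, cochaperones and heat shock factors were read from lists of 80 genes, of which 77 were measured. At 1 nM 10 of these rose and 5 fell (19.5%), and at 10 nM 17 rose and 5 fell (28.6%), against 23.6% and 30.1% of all genes. Their median change was 0.07 at 1 nM and 0.12 at 10 nM, and that of the 10 genes described above was 0.33 at both. Between the doses the heat shock factor gene Hsf5 rose and none fell by limma, with 7 higher and 2 lower at an unadjusted p under 0.05. With median scaling, the medians of these lists against vehicle were above 0 and few single genes were called. The median of all genes was itself 0.38 at 1 nM and 0.40 at 10 nM under that scaling. That of the other small heat shock proteins lay below it (0.27 and 0.23), and those of the other lists above it.

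Of the other small heat shock proteins, 4 of 5 were measured, and Hspb3, which pairs with Hspb2 in muscle, fell at 10 nM (-0.34; limma adjusted p = 0.0275), a call that median scaling did not keep. Hspb9, Hspb11 and Cryaa did not pass at either dose. Cryaa, the alpha A-crystallin of the lens, was at -3.02 ± 1.20 (SD, n = 3) in vehicle and at -4.23 ± 0.54 (SD, n = 3) at 10 nM.

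Of 18 measured genes of the HSP70 family and its nucleotide exchange factors, 2 rose and 3 fell at 1 nM, and 4 rose and 2 fell at 10 nM, with medians of -0.05 and 0.02. Bag2, an exchange factor that blocks ubiquitination of HSP70 clients, rose by 0.63 and 0.46 (limma adjusted p of 0.000699 and 0.00269). Hspa9, the HSP70 of the mitochondrial matrix, rose by 0.38 and 0.50. Hspa5, the HSP70 of the endoplasmic reticulum, fell at 1 nM (-0.29; adjusted p = 0.00982), and Hspa12a fell at both doses (-0.80 and -0.49). Hspa12b fell by 1.12 and 1.31 (adjusted p of 0.0388 and 0.0169), from vehicle arrays that ran from -3.197 to -2.195. Without vehicle replicate 3 the counts of this list were 1 higher and 2 lower at 1 nM, and 5 higher and 2 lower at 10 nM. The classic heat-inducible gene Hspa1a was at -2.73 ± 0.24, -2.78 ± 0.08 and -2.37 ± 0.02 (SD, n = 3 each) in vehicle, 1 nM and 10 nM and was not called at either dose (adjusted p of 0.81 and 0.054), and Bag3, the partner of Hspb8, differed by -0.05 and -0.09 (adjusted p of 0.759 and 0.543).

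The J-domain list held 17 measured genes, of which 4 rose at 1 nM, 6 rose at 10 nM and none fell by limma (nor at an unadjusted p under 0.05), with medians of 0.15 and 0.20. Dnajb1 is not among them. Dnajb6, whose product acts with Bag3 at the Z-disc, rose by 0.52 and 0.47 (limma adjusted p of 0.000831 and 0.00111). Dnaja4 rose by 0.38 and 0.52, and Dnajc8 rose by 0.36 at both doses (adjusted p of 0.0209 and 0.0185). Dnaja1, a general partner of HSP70 in the cytosol, rose by 0.24 at 1 nM (adjusted p = 0.0443). Dnaja3 of the mitochondria and Dnajb4 rose by 0.50 and 0.44 at 10 nM.

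Of 17 genes of the HSP90 family and its cochaperones, 3 rose and 2 fell at 1 nM, and 4 rose and 2 fell at 10 nM. Ahsa1, which stimulates the ATPase of HSP90, rose by 0.56 and 0.73 (limma adjusted p of 0.000676 and 0.000112). Itgb1bp2 (melusin), a muscle cochaperone, rose by 0.54 and 0.34 (adjusted p of 0.00854 and 0.0459), and Unc45b, the myosin chaperone, rose by 0.57 at 10 nM. Ppid, an HSP90 cochaperone of the cyclophilin family, rose by 0.33 and 0.40 (adjusted p of 0.0247 and 0.00766). The steroid receptor cochaperone Fkbp5 fell by 0.54 and 0.76 (adjusted p of 0.00088 and 9.78e-05), and Hsp90b1, the HSP90 of the endoplasmic reticulum, fell by 0.39 and 0.32 (0.0155 and 0.0276).

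Of 16 chaperonin and prefoldin genes, Hspd1, the mitochondrial chaperonin, rose at both doses (0.32 and 0.37; limma adjusted p of 0.0259 and 0.0113), and no other passed. The heat shock factor list held 5 genes: Hsf1, Hsf2, Hsf4, Hsf5 and Hsbp1, the last for a protein that binds such factors. None of the 5 was called at 1 nM by limma, and 1 had an unadjusted p under 0.05. Hsf2 rose by 0.23 at 10 nM (adjusted p = 0.0209). Hsf5 rose by 1.77 at 10 nM (adjusted p = 0.0011) and by 1.07 between the doses (0.0358), but its probe was well above background on 1 of 3 vehicle arrays and had no value on vehicle replicate 3. Hsf1 itself was at 1.58 ± 0.27, 1.45 ± 0.09 and 1.35 ± 0.09 (SD, n = 3 each) and was not called (adjusted p of 0.516 and 0.239).

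A list of 11 partners and clients of the small heat shock proteins at the Z-disc had 6 higher and 1 lower at 1 nM, and 7 higher and none lower at 10 nM by limma (nor at an unadjusted p under 0.05), with medians of 0.39 and 0.47. Without vehicle replicate 3 the counts were 5 and 1, and 6 and none, and with median scaling 2 higher and 3 higher, with none lower at either dose. Over all genes in the main fit, 11.8% were called higher and 11.8% lower at 1 nM, and 15.4% and 14.7% at 10 nM. This list too was chosen with earlier results of these data known, so its counts and medians only describe it. Ldb3, a scaffold that joins alpha-actinin to titin, rose by 0.84 and 1.05 (adjusted p of 0.000853 and 0.000182), and Actn2, the alpha-actinin of the Z-disc, rose by 0.85 and 0.59 (0.000638 and 0.00315). Myot (myotilin) rose by 0.61 and 0.72, and Flnc, the filamin that Hspb7 binds, by 0.33 and 0.44. Synpo fell by 1.09 at 1 nM and did not differ from vehicle past the threshold at 10 nM (-0.05; adjusted p = 0.801), so that its level rose by 1.04 from the lower to the higher dose (adjusted p = 0.00552). Dnajb6, Bag3 and Stub1 are in this list as well as in those above.

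**Figure D4:**
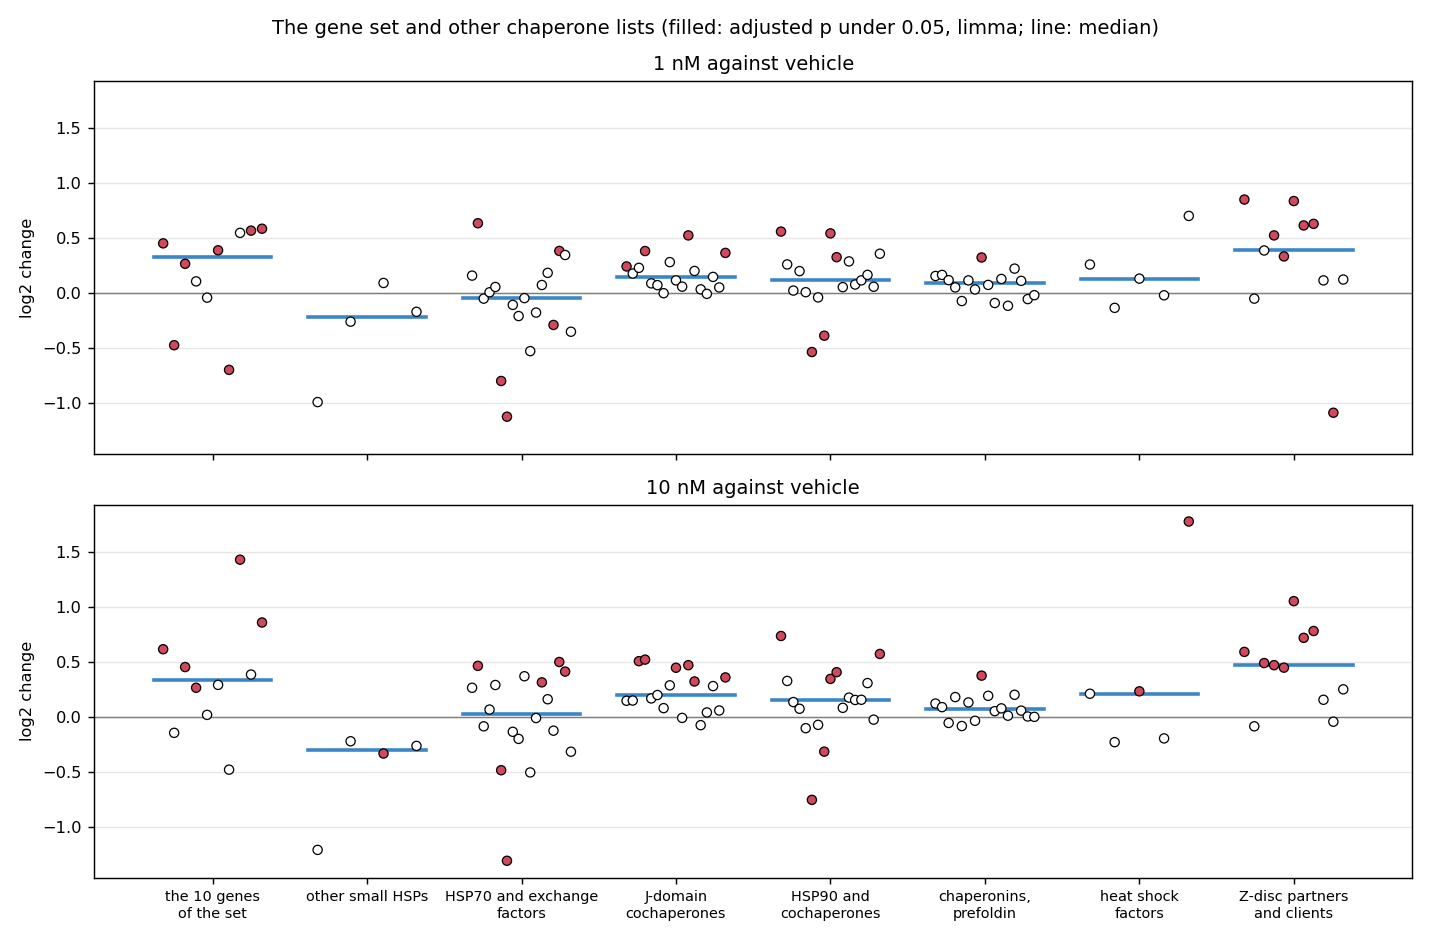
Log2 change against vehicle of every measured gene of the 10 described here and of 7 lists of other chaperones and partners, at 1 nM (top) and 10 nM (bottom), with the list's median as a line; filled points have a limma adjusted p under 0.05. The median of the 10 genes (0.33 at both doses) and that of the Z-disc partners (0.39 and 0.47) lie above those of the other lists, and the J-domain list has no filled point below 0. The 10 genes and all lists were chosen with earlier results of these data known.

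Levels of cell type markers moved between the groups as well, and fewer cells of a type and less RNA per cell cannot be told apart in bulk samples. All 8 myotube markers were above background on every array, and their summed level relative to the 75th percentile was 297.1 to 340.8 in vehicle, 371.9 to 402.6 at 1 nM and 388.4 to 400.4 at 10 nM, with 3 of 8 called higher at 1 nM and 4 of 8 higher and 1 lower (Myog) at 10 nM. Without vehicle replicate 3 the counts were 2 higher, and 2 higher and 1 lower, and with median scaling none was called at either dose by limma (5 and 6 higher at an unadjusted p under 0.05). The 4 markers of cycling cells summed to 14.6 to 16.0 in vehicle, 0.791 to 0.93 at 1 nM and 0.499 to 0.52 at 10 nM, and all 4 fell at both doses. The fibroblast sum was 179.3 to 191.6 in vehicle, 84.4 to 97.2 at 1 nM and 90.8 to 103.5 at 10 nM, and at each dose 3 of its 4 markers fell and Pdgfra rose (0.47 and 0.49; limma adjusted p of 0.00382 and 0.00234). The myoblast sum was 25.8 to 29.7, 28.9 to 30.1 and 29.7 to 33.2, and of its 4 markers Myod1 rose (0.66 and 0.89; limma adjusted p of 0.00415 and 0.000689) and Pax7 fell (-0.57 and -0.91; 0.0183 and 0.00142). The adipocyte sum was at most 0.347 in vehicle, 1.36 at 1 nM and 3.94 at 10 nM. None of its 4 markers was above background on every array. Fabp4 and Adipoq were above it on 1 of 3 vehicle arrays and on all 3 arrays of each dose. Fabp4 rose by 6.94 and 7.59 (limma adjusted p of 0.00319 and 0.00151) and Adipoq by 7.67 at 10 nM (0.00475). Those sizes rest on dim vehicle values, and no other marker of this list was called. Of the macrophage list, Lyz2 was below background on all arrays, and Adgre1, Cd68 and Csf1r were above it on every array. Their sum was 1.99 to 2.15 in vehicle, 1.65 to 2.10 at 1 nM and 1.82 to 2.36 at 10 nM. None was called. Small heat shock proteins are themselves abundant in skeletal muscle, and their genes did not all go the same way. Cryab, Hspb2, Hspb7 and Hspb8 were each called higher at 1 nM, at 10 nM or at both. Hspb6 was called lower at 1 nM and Hspb3 at 10 nM, and Hspb1 was not called against vehicle. The part of the marker changes in the differences of the 10 genes was not tested.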

How the data were processed

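Total RNA of 9 C2C12 cultures was measured on 1-colour Agilent arrays of 44397 spots. The deposited scanner files hold linear intensity values, per the file headers (processed signal, mean signal and background), beside columns of 0 or 1 that mark controls, outlying or saturated spots and spots well above background. The submitters' processing notes name Agilent Feature Extraction 11.5.1.1 and limma without a version. The authors' series table holds log2 values of 30094 probes, which correlated at 0.9999 with normexp-corrected, quantile-normalized values made here, had column medians from 9.65 to 9.72, and served as an alternative.

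Control spots (1377) and non-uniform spots were left out, spots of a probe were averaged, and a probe was kept if well above background on all 3 arrays of a group (28342 of 39429 probes). A gene was represented by its brightest kept probe. Names came from RefSeq (GRCm38.p6) for 21036 kept probes by accession and 2168 by symbol, and from the files for 5138. Groups were compared in 1 fit of all 9 arrays (lmFit and eBayes of limma 3.58.1, R 4.3.3; Benjamini-Hochberg adjustment over all genes, threshold 0.05), a procedure tested on simulated data. The sample titles and the design text call the replicates biological. No pair of arrays was closer than an SD of 0.251 (log2), and 0 values were identical.

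The genes, lists and alternatives were chosen with earlier results of these data known. Named were the 10 genes, up to 4 called genes of each other list with the smallest p in each comparison (2 where none passed), up to 2 of each marker list, and Cyp24a1. Hsf1 and Bag3, and other comparisons of genes the rule took, were added after their values were seen. Deviations of same-numbered 1 nM and 10 nM arrays from their group means correlated at 0.484, 0.329 and 0.144. The main fit holds no block, and the replicate number was a block only in an alternative fit. Same-numbered arrays of the doses shared a slide for replicates 1 and 2 but not for replicate 3, so number and slide cannot be fully told apart. For vehicle against 10 nM the correlations were -0.186, -0.193 and -0.42. Protein sequences were not analysed here.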

Additional observations from a re-analysis of the deposited data

How the results depend on the processing

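Over 26 alternatives and 30 differences of the 10 genes, 766 of 780 values kept their sign and 646 kept sign and call. For the 7 genes called at 1 nM, the count was 0 with median scaling, 3 with only the groups compared, 0 within slide 1, 2 with median scaling without vehicle replicate 3 (an alternative chosen after seeing the data), 3 at an adjusted p under 0.01, 0 at 2-fold, and 3 to 8 on leaving out an array: 4 without vehicle replicate 1 and 3 without 1 nM replicate 2 or 3. For the 5 genes at 10 nM it was 3 with median scaling, 8 with a trended robust spread model, 8 with array weights, 1 within slide 1, 1 at 2-fold, and 4 to 8 on leaving out an array, 8 being without vehicle replicate 2. For the 2 genes between the doses it was 1 with normexp, with non-uniform spots kept, with the mean of probes and with single probes. It was 0 with median scaling (with or without vehicle replicate 3), quantile normalization, the series table, no filter, the replicate block, the slide block, either slide alone, an adjusted p under 0.01 and 2-fold, and 0 to 2 on leaving out an array. Of all genes, 5188 were called at 1 nM, against 1513 with median scaling, 11509 with array weights, 1584 within slide 1, 10449 within slide 2, 3092 at 0.01 and 1453 at 2-fold. At 10 nM 6622 were called, against 2532, 10453, 2574, 10019, 4339 and 2043 under the same settings. Between the doses 837 were called, against 58, 1887, 5, 0, 370 and 164, with 368 for the series table, 535 without a filter, 1351 with only the groups compared, 459 with the replicate block, 355 with the slide block, and 366 to 1267 on leaving out an array. The replicate block ended the calls of Hspb7 and Dnajb1 between the doses; against vehicle, where numbers did not pair the arrays, it left 6 genes called at each dose. Changes of sign were as follows. Hspb1 at 1 nM (-0.04) went to 0.00236 with normexp, 0.45 with median scaling, 0.0387 with the series table, 0.11 with median scaling without vehicle replicate 3, and ran from -0.126 to 0.0147 on leaving out an array. Hspb1 ran in the same way from -0.0687 to 0.0682 at 10 nM and from -0.0156 to 0.134 between the doses, where normexp gave -0.000672. Dnajb1 went to 0.0159 at 1 nM with median scaling, and at 10 nM to 0.38 with median scaling and 0.021 without vehicle replicate 3 besides. Hspb6 at 10 nM went to 0.0452 with median scaling. Stricter thresholds lower the counts by construction, and the cause of the other differences was not tested. No kept probe of the 10 genes was limited by background or saturation.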
